A study of Mus musculus with 22 samples.

Results

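Hsd3b6 and its relatives encode 3-beta-hydroxysteroid dehydrogenase/isomerases, enzymes that turn a delta-5 hydroxysteroid into a delta-4 ketosteroid, the step that leads from pregnenolone to progesterone. The mouse has several of these genes side by side on chromosome 3, and their products are best known from the adrenal gland, the gonads, the placenta, the liver and the kidney. Hsd3b7, on chromosome 7, encodes a more distant enzyme that works on oxysterols in bile acid synthesis. The 5 genes described here, Hsd3b1, Hsd3b2, Hsd3b3, Hsd3b6 and Hsd3b7, were taken by symbol from the 48709 genes of the count tables, and all 5 are listed there. Hsd3b6 was chosen by its measured fold change in LIN9 KO ventricles, so its LIN9 comparisons are given as a description with no test, and the others were taken as its family.

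The data are RNA-seq counts from the ventricles of E13.5 mouse hearts. They comprise 18 libraries, 3 for each of 6 groups, from 2 experiments that were counted and fitted apart. All embryos carried Nkx2.5-Cre, which is active in cardiac precursor cells and not in every cell of a ventricle. The first experiment compared LIN9 wt with LIN9 KO (homozygous floxed Lin9) ventricles, whose labels name no Sav1 allele. The second held LIN9 wt and LIN9 KO ventricles, each with wild-type Sav1 or with Sav1 KO (homozygous floxed Sav1). LIN9 is a subunit of MuvB, the core of complexes that control cell cycle genes, and SAV1 is a scaffold protein of the Hippo pathway. The study used mice with 1 floxed Lin9 allele over a wild-type allele as controls, which the labels call wild-type. The comparisons asked how the loss of LIN9, the loss of SAV1 and the loss of both change gene expression in the embryonic ventricle. The labels say that RNA was isolated in triplicate, and the study counts its experiments, not the 3 libraries, as biological replicates. The 3 libraries of a group may thus be repeats of 1 biological sample, so every SD and p-value measures the spread between these libraries, which may be technical. Between 2 libraries of a group, the chi-square per degree of freedom over genes was 5.67 to 26.2 in the first experiment. It was 1.22 to 21.5 in the second. Counting error alone would give about 1, and the source of the rest was not tested.

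Total counts were 9485599 to 9615274 per library in the first experiment and 2770741 to 2999877 in the second. On the TMM library sizes used for CPM (counts scaled to 1000000 per library), 1 count stood for 0.103 to 0.108 and 0.328 to 0.373 CPM. Of the cardiomyocyte markers, 7 of 8 were detected, with summed levels of 19950 to 20360 CPM in LIN9 wt and 10060 to 13850 CPM in LIN9 KO libraries of the first experiment. The eighth, Actc1, was at 0 in all 18 libraries, and all of its exonic bases lie under the span of another gene. Lin9 counts cover the whole gene while the knockout removes 1 exon, so they do not check the labels. The Lin9 level in LIN9 KO was 20.6 ± 1.21 against 25.6 ± 4.18 CPM (SD, n = 3) in the first experiment, with an edgeR adjusted p of 0.13. In the second, with wild-type Sav1, it was 15.5 ± 2.37 against 26.8 ± 3.23 CPM, with an adjusted p of 0.0027. With Sav1 KO it was 22.7 ± 3.85 against 25.4 ± 6.11 CPM (adjusted p = 0.586). Sav1, counted in the same way, was at 40.7 ± 3.98 CPM in LIN9 wt Sav1 KO and 57.5 ± 3.88 CPM in LIN9 wt Sav1 wt (adjusted p = 0.318).

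Of the 4 genes in the chromosome 3 cluster, Hsd3b6 (ENSMUSG00000027869) lies on the minus strand of GRCm38 at chr3:98805504-98814443 and Hsd3b1 (ENSMUSG00000027871) at chr3:98852194-98859794, 45.4 kb from start to start. Both are protein-coding, and neither shares an exonic base with the span of another gene. The stretches before their starts are printed because these were the members that could be tested. They are the RefSeq promoter windows of GRCm38.p6, 300 bases each, from 250 bases before to 50 bases after the start, at chr3:98814394-98814693 and chr3:98859745-98860044. The capitals mark matches to AGATAA, a form of the site read by GATA factors, and other forms of this site were not searched.

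Hsd3b6: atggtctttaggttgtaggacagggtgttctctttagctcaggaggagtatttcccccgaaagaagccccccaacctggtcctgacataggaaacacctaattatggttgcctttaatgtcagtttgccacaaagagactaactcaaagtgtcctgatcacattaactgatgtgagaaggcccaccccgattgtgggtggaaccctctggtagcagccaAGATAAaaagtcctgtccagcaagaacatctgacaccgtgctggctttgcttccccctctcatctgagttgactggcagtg

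Hsd3b1: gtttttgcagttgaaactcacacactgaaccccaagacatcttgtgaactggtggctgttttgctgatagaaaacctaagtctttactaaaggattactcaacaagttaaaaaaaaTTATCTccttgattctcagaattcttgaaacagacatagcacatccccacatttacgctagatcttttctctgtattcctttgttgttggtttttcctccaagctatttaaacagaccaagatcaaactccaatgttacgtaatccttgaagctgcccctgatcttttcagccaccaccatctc

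The match in Hsd3b6 begins at position -31 from the start on the promoter strand, and the match in Hsd3b1 at position -134 on the opposite strand. Such a match is found in 11.2% of 32851 promoter windows of this length. Both strands were also searched for TTTGAA, the cell cycle homology region that MuvB binds (in 17.9% of windows), CACGTG, the E-box of the clock (7.15%), TTATGNAA, the D-box (3.38%), AAGGTCA, the site of SF-1, the master regulator of steroidogenic cells (4.72%), and TGATGNAA, read by ATF4 (3.97%). None of these letters occurred in the windows of Hsd3b6 and Hsd3b1. Of the other members, the windows of Hsd3b2 and Hsd3b3 held TTTGAA, that of Hsd3b3 also held AGATAA, and that of Hsd3b7 held no match.

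Hsd3b6, known from the placenta, the skin and the aldosterone-making zone of the adrenal gland, was the member with the most counts. It was detected in all 18 libraries and was higher in every LIN9 KO library than in any LIN9 wt library of the same experiment. In the first experiment it had 126, 109 and 71 counts in LIN9 wt and 1503, 1022 and 705 counts in LIN9 KO. The groups were far apart, with the lowest LIN9 KO library well above the highest control. The level was 114 ± 45.6 CPM in LIN9 KO against 10.6 ± 2.90 CPM in LIN9 wt (SD, n = 3), a log2 fold change of 3.42 ± 0.39 (SE). In bulk tissue, more cells of a type and more RNA per cell cannot be told apart.

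In the second experiment, the counts of Hsd3b6 were 13, 15 and 8 in LIN9 wt Sav1 wt and 130, 223 and 193 in LIN9 KO Sav1 wt. They were 7, 11 and 14 in LIN9 wt Sav1 KO and 148, 109 and 51 in the double knockout. The libraries thus fell into a low pair and a high pair of genotypes, divided by LIN9. The levels were, in descending order, 62.6 ± 17.2 CPM in LIN9 KO Sav1 wt, 35.7 ± 16.3 CPM in the double knockout, 4.08 ± 1.20 CPM in LIN9 wt Sav1 wt and 3.62 ± 1.21 CPM in LIN9 wt Sav1 KO. The upper pair overlapped, as did the lower pair, and no library of the upper pair reached down to the lower. The LIN9 difference of Hsd3b6 was a log2 fold change of 3.92 ± 0.47 with Sav1 wt and 3.29 ± 0.51 with Sav1 KO, and that of the double knockout over the control was 3.12 ± 0.50. The double knockout comparison shares its double knockout libraries with the Sav1 KO difference and its control libraries with the Sav1 wt difference. Groups that do not overlap, with the higher level in the knockout, were found for 18.4% of all genes tested in the first experiment, and for 18.4% (Sav1 wt), 21.9% (Sav1 KO) and 19.8% (double knockout) in the second.

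**Figure D1:**
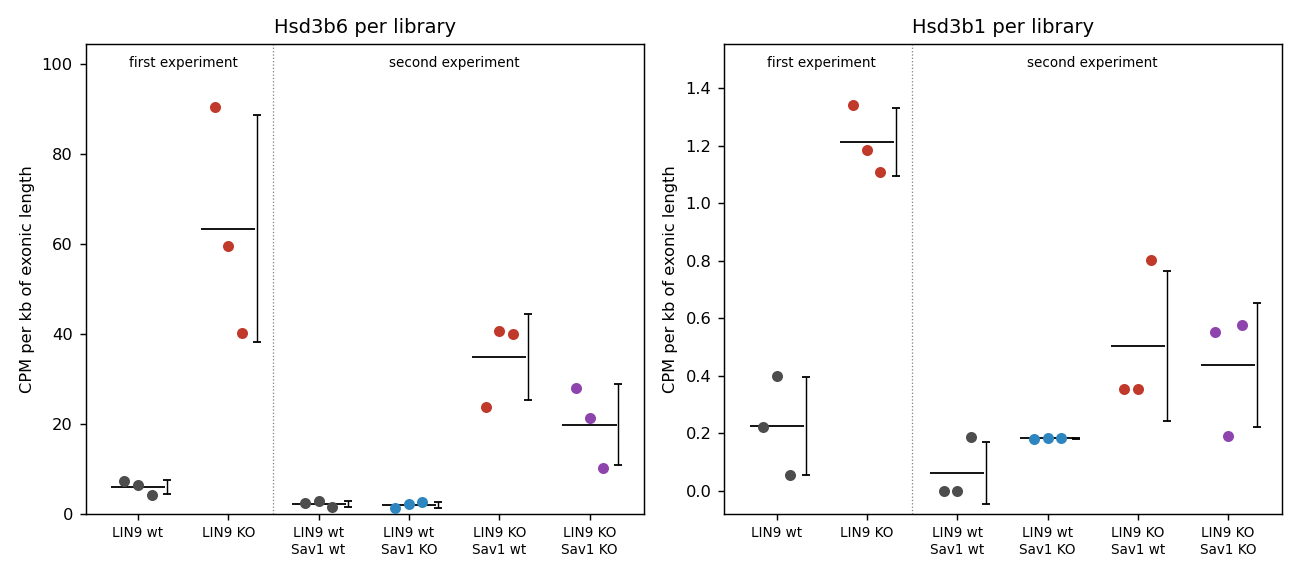
Level of Hsd3b6 (left) and Hsd3b1 (right) in CPM per kb of exonic length in each of the 18 libraries (points), with group means (lines) and SD (bars, n = 3), for both experiments. Hsd3b6 lies between 4.09 and 7.20 in LIN9 wt and between 40.2 and 90.5 in LIN9 KO ventricles of the first experiment, and the right-hand axis spans a far lower range.

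Per kb of exonic length, Hsd3b6 went from 5.89 ± 1.61 to 63.4 ± 25.3 CPM in the first experiment. Its level was above that of 58.6% of the tested genes in LIN9 wt and above that of 95.5% in LIN9 KO. In the second experiment these shares were 34.1% in LIN9 wt Sav1 wt, 32.4% in LIN9 wt Sav1 KO, 90.5% in LIN9 KO Sav1 wt and 82.9% in the double knockout. By log2 fold change among genes with a mean of at least 5 CPM, Hsd3b6 took rank 6 of 12243 in the first experiment, between Kel (3.55) and Ermap (3.26). It took rank 3 of 12397 with Sav1 wt in the second, between Gdf15 (4.10) and Car12 (3.66), rank 7 with Sav1 KO and rank 10 in the double knockout. Over all genes tested, low ones included, the ranks were 52 of 19752 in the first experiment and 41 (Sav1 wt), 77 (Sav1 KO) and 80 (double knockout) of 17675 in the second. As the gene was picked by this fold change, the ranks describe the choice.

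The Sav1 comparisons of Hsd3b6 use the same libraries as the LIN9 comparisons by which it was chosen, so they too are given as a description with no test. In LIN9 wt ventricles, Hsd3b6 differed between Sav1 KO and Sav1 wt by a log2 fold change of -0.17 ± 0.75, and the groups overlapped. In LIN9 KO ventricles, it was at 35.7 CPM with Sav1 KO and at 62.6 CPM with Sav1 wt, a log2 fold change of -0.80 ± 0.33 with overlapping groups. The interaction, the Sav1 difference in LIN9 KO minus that in LIN9 wt, was -0.63 ± 0.84 on the log2 scale. It equals the LIN9 difference with Sav1 KO minus that with Sav1 wt. Hsd3b1, the other member that passed the count filter, did so here through its LIN9 KO libraries. Between Sav1 KO and Sav1 wt it had 3 against 1 counts in LIN9 wt, a ratio of 2.98 (exact 95% interval 0.24 to 157). In LIN9 KO it had 7 against 8 counts, a ratio of 0.894 (0.276 to 2.82). With so few counts, a missing call cannot show an unchanged level. It was not called by edgeR for SAV1 in LIN9 wt (adjusted p = 0.999), for SAV1 in LIN9 KO (0.957) or for the interaction (0.908). The unadjusted p-values of Hsd3b1 by edgeR were 0.331, 0.837 and 0.339, and its values here are given as a description. Of all 17675 genes, 0.017%, 0.0113% and 0% were called in these comparisons, and 693, 2093 and 1156 genes had an unadjusted p under 0.05.

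Hsd3b1, which encodes the enzyme of the adrenal gland and gonads, was a low gene, with 95 counts in all 18 libraries against 4458 for Hsd3b6. In the first experiment it had 4, 7 and 1 counts in LIN9 wt and 23, 21 and 20 counts in LIN9 KO, so the groups did not overlap. Its level rose from 0.418 ± 0.317 to 2.25 ± 0.223 CPM (SD, n = 3), with a log2 fold change of 2.40 ± 0.44 and an adjusted p of 0.00116 by edgeR over all 19752 genes tested. Of all genes tested in this comparison, 11.1% were called higher and 20.9% in either direction.

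In the second experiment, Hsd3b1 had 0, 0 and 1 counts in LIN9 wt Sav1 wt and 2, 2 and 4 in LIN9 KO Sav1 wt. This is a ratio of 8.04 with a counting interval of 1.08 to 357 (95%, exact), and the adjusted p was 0.0848 by edgeR. It had 1 count in each LIN9 wt Sav1 KO library and 3, 1 and 3 counts in the double knockout, a ratio of 2.41 with an interval of 0.55 to 14.4 (adjusted p = 0.394). The double knockout over the control had a ratio of 7.19 (interval 0.924 to 324, adjusted p = 0.123). At this depth, each of these ranges takes in the first experiment's ratio of summed counts, 5.40 (interval 2.89 to 11.0). Hsd3b1 passed the filter of a mean count above 1 in this experiment through its LIN9 KO libraries, since the LIN9 wt libraries, with 1 and 3 counts per group, would have fallen below it by themselves. Its ratios and p-values here are thus conditioned on the higher LIN9 KO counts and are given as a description. They also rest on the 1 count of LIN9 wt Sav1 wt replicate 3, without which the log2 fold change went from 2.61 to 4.48 with Sav1 wt (adjusted p = 0.0541 by edgeR) and from 2.46 to 4.33 in the double knockout (0.0741). Without that library the control stands at 0 counts, so these fitted values depend on the prior count and are no bound. With Sav1 wt, with Sav1 KO and in the double knockout, 12.8%, 11.8% and 10.7% of 17675 genes were called higher, and 23.2%, 23.4% and 20.6% in either direction. The Hsd3b1 counts did not overlap with Sav1 wt, and with Sav1 KO and in the double knockout over the control, both groups held a library with 1 count. The intervals cover counting error only.

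Hsd3b1 and Hsd3b6 are near copies, with 90% identity over the 1122 bases of their coding sequences. Their longest identical run is printed because reads from it fit both genes. It is 72 coding bases long and crosses an intron in both genes, between chr3:98806661 and chr3:98807825 in Hsd3b6 and between chr3:98853353 and chr3:98856054 in Hsd3b1.

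Shared run: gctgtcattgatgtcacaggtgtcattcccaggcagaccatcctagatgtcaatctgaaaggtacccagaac

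Of the 1801 stretches of 50 bases in the Hsd3b6 transcripts, 38 also occur in Hsd3b1, and of the stretches of 75 bases 0 do. In all, 15.7% of the 50-base stretches of Hsd3b6 are shared with another gene, mostly with Hsd3b2 and Hsd3b3, to which it is 94.4% and 94.5% identical. The read length was not given in the sources used here, so how many reads could have been moved between the copies is not known. Hsd3b1 made up 1.39% to 6.03% of the counts of both genes in the LIN9 wt libraries and 1.51% to 2.76% in the LIN9 KO libraries of the first experiment. Over the groups, this was 3.77% (exact 95% interval 1.96 to 6.5%, 318 counts) and 1.94% (1.5 to 2.47%, 3294 counts). The part of misplaced reads in the rise of Hsd3b1 was not tested.

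Hsd3b2, Hsd3b3 and Hsd3b7 did not pass the filter of a mean count above 1. Hsd3b3 (chr3:98741523-98763127), an enzyme of liver and kidney, had 1 count in 1 LIN9 wt library and 1 count in 1 LIN9 KO library of the first experiment and none elsewhere. Of its exonic bases, 75.9% are clear of any other gene. A count of 0 allows up to 3 counts, which is 0.309 to 0.325 CPM in the first and 0.984 to 1.12 CPM in the second experiment, so the level in a library with 0 counts may lie anywhere up to this value.

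Hsd3b2 (chr3:98709255-98724543) and Hsd3b7 (chr7:127800604-127803802, plus strand) were at 0 in all 18 libraries, but these zeros cannot be read as absence. All exonic bases of Hsd3b2 lie under the span of Zfp697, a gene of the opposite strand, and 99.2% of those of Hsd3b7 lie under exons of other genes, Gm49388 and 9430064I24Rik, which were at 0 too. Among protein-coding genes whose exonic bases all lie under another gene, 90.4% (1179 of 1304) were at 0 in all 18 libraries. Among genes with no such overlap, 18% (2618 of 14509) were at 0. The same holds for Hsd3b4 and Hsd3b5, which lie under Zfp697 and were at 0 in all libraries. The overlap mode and the strand setting of the counting were not given in the sources used here.

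Genes around Hsd3b6 were called in both directions. Of 15 protein-coding genes that start within 1 Mb, other than the members, 9 were tested in the first experiment, of which 2 rose and 1 fell, beside 20.9% of all genes called in either direction. With Sav1 wt, 8 were tested in the second, of which 2 rose and 2 fell, and with Sav1 KO the counts were the same, beside 23.2% and 23.4% of all genes. Sec22b, a vesicle trafficking gene, rose by 0.40 to 0.54 on the log2 scale, and Pde4dip, a centrosomal and Golgi scaffold, had log2 fold changes of -0.44 to -0.68. Wars2, the mitochondrial tryptophanyl-tRNA synthetase, was called lower with Sav1 wt (-0.52 ± 0.15, adjusted p = 0.00962). Tbx15, a T-box factor, was called lower with Sav1 KO on 1 against 12 counts, a ratio of 0.086 with an interval of 0.00201 to 0.582. Without double knockout replicate 1, the genes called with Sav1 KO went from 4 to 2. Closer to the members, Zfp697 (-0.15 ± 0.13, adjusted p = 0.481 in the first experiment) and Hao2 (17 counts in the first experiment, adjusted p = 0.921), a peroxisomal hydroxyacid oxidase, were not called.

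**Figure D2:**
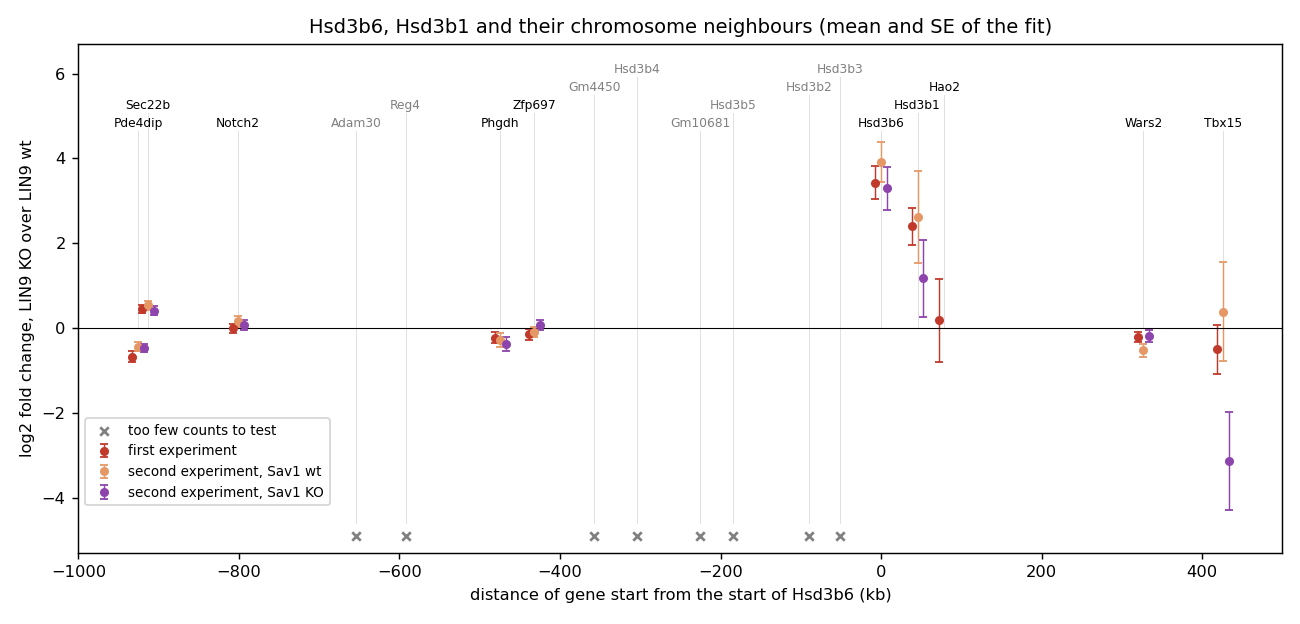
Log2 fold change of LIN9 KO over LIN9 wt (points, with SE of the fit) of Hsd3b6 and of the genes named in the plot that start within 1 Mb, against the distance of their start from that of Hsd3b6 in kb, in the 3 LIN9 comparisons. Hsd3b6 lies at 3.29 to 3.92, Sec22b at 0.40 to 0.54, crosses mark genes with too few counts to test, and the points of Hsd3b1 and Tbx15 in the second experiment rest on 1 to 12 counts per group.

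The genes whose levels were most like that of Hsd3b6 were led by embryonic globins. Likeness was the lower of the Pearson correlations of log2 CPM over the 6 libraries of the first and over the 12 of the second experiment, among 15233 genes. The closest were Hbb-y, the embryonic beta-like globin (0.996 and 0.985), Fam114a1 (0.985 and 0.986), Hba-x, the embryonic alpha-like globin zeta (0.999 and 0.982), Creg1 (0.981 and 0.988) and Hba-a2, an adult alpha globin (0.975 and 0.987). A correlation does not weigh the size of a change. For LIN9 in the first experiment and in the second with Sav1 wt, Fam114a1 had log2 fold changes of 0.919 and 1.155. Those of Creg1 were 1.239 and 1.085 and those of Hba-a2 2.515 and 2.657, against 3.42 and 3.92 for Hsd3b6. Hba-a2 has a near-identical copy, Hba-a1, and reads could be split between them. LIN9 wt and LIN9 KO libraries form separate clusters in all of these genes, so the correlations, given with no test, describe the genotypes as much as the libraries.

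The markers of erythroid cells moved with Hsd3b6. Of 7 listed, 6 were tested and all 6 were called higher in each of the 3 LIN9 comparisons, with median log2 fold changes of 2.29, 2.71 and 2.36. Of all genes tested, 11.1%, 12.8% and 11.8% were called higher in these comparisons. The seventh, Alas2, was at 0 in all libraries and lies wholly under another gene. The summed level of the list was 2632 to 3742 CPM in LIN9 wt and 9881 to 26120 CPM in LIN9 KO of the first experiment. In the second it was 1521 to 1869 CPM in LIN9 wt Sav1 wt, 5942 to 11080 CPM in LIN9 KO Sav1 wt, 1230 to 1590 CPM in LIN9 wt Sav1 KO and 3214 to 9091 CPM in the double knockout. The part of erythroid cells in the level of Hsd3b6 was not tested.

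Hba-x was at 344, 290 and 197 CPM in LIN9 wt and at 3474, 2775 and 1608 CPM in LIN9 KO of the first experiment. The order of the libraries within both groups was that of Hsd3b6. In the second experiment, the order was the same in 1 of 4 groups, the double knockout, and over both experiments it was the same in 3 of 6. The log2 fold change of Hba-x was 3.24 ± 0.33 (adjusted p = 0.000492) in the first experiment, and 3.31 ± 0.26 (2.19e-05) and 2.97 ± 0.26 (4.45e-05) in the second with Sav1 wt and Sav1 KO. That of Hbb-y was 3.24 ± 0.40, 3.29 ± 0.43 and 3.14 ± 0.43, against 3.42, 3.92 and 3.29 for Hsd3b6.

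Set against Hba-x, the levels of Hsd3b6 overlapped between LIN9 wt and LIN9 KO. Hba-x and Hbb-y were taken after their likeness to Hsd3b6 was seen, so a nearly level ratio follows from that choice and the ratios are no test. For each 1000 CPM of Hba-x, the first experiment had 37.7, 39.7 and 37.5 CPM of Hsd3b6 in LIN9 wt and 46.9, 38.6 and 45.1 CPM in LIN9 KO, and these ranges overlapped. In terms of mean log2 values, LIN9 KO stood 1.13-fold above LIN9 wt in this ratio, while Hsd3b6 itself stood 10.5-fold above. In the second experiment, the ratio was 24.5 to 53.8 in LIN9 wt Sav1 wt, 41.4 to 62.4 in LIN9 KO Sav1 wt, 30.6 to 50.9 in LIN9 wt Sav1 KO and 39.2 to 59.6 in the double knockout. LIN9 KO stood 1.54-fold (Sav1 wt) and 1.23-fold (Sav1 KO) above LIN9 wt, again with overlapping groups. Set against Hbb-y, the LIN9 differences were 1.18-fold, 1.62-fold and 1.18-fold, with overlap in each. Set against the summed erythroid markers, which are mostly adult globin, LIN9 KO stood above LIN9 wt without overlap, by 2.28-fold, 3.04-fold and 2.35-fold. The ratios differed with the erythroid genes used, and they do not measure the part of erythroid cells, which was not tested.

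**Figure D3:**
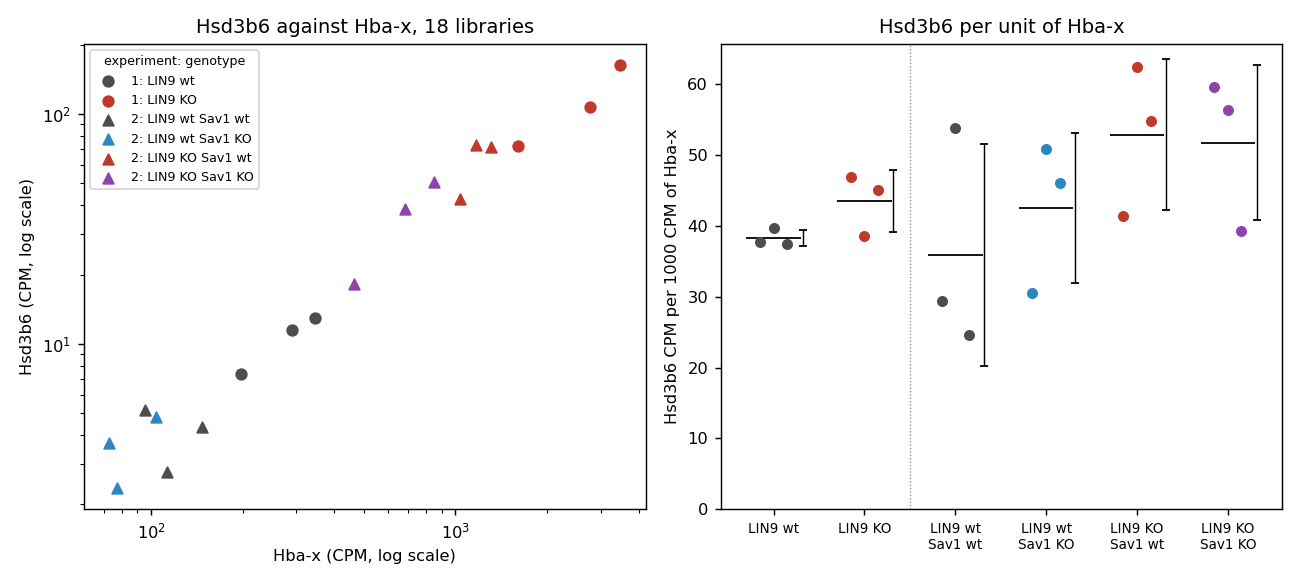
Left, Hsd3b6 against the embryonic globin Hba-x (both in CPM on log axes) in the 18 libraries, with circles for the first and triangles for the second experiment. Right, Hsd3b6 CPM per 1000 CPM of Hba-x in each library (points), with group means (lines) and SD (bars, n = 3). On the left, all LIN9 KO libraries lie above the LIN9 wt libraries of their experiment in both genes, and the groups on the right overlap between LIN9 wt and LIN9 KO in both experiments.

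Markers of tissues in which these enzymes are best known were counted too, in comparisons where 11.1% (first experiment), 12.8% (Sav1 wt) and 11.8% (Sav1 KO) of all genes tested were called higher and 9.78%, 10.5% and 11.6% lower. The adrenal cortex and gonad list was at 25.6 to 27.1 CPM in LIN9 wt and 17.5 to 22.2 CPM in LIN9 KO of the first experiment, with 0 of its 5 tested genes higher and 1, Cyp17a1, lower. The liver list was at 0.824 to 3.12 and 1.57 to 9.05 CPM, with Serpina1a and Fgb at 0, Ttr higher and Apoa2 lower, and the skin sebaceous list at 1.77 to 2.85 and 1.54 to 3.46 CPM, with Elovl3 at 0. The trophoblast and placenta list was at 24 to 33.4 and 21.2 to 26.4 CPM, with Prl3b1, Tpbpa and Ctsq at 0, Plac1 higher and Hand1, also a heart gene, lower. The kidney proximal tubule list was higher, at 58.8 to 76.1 CPM in LIN9 wt and 112 to 132 CPM in LIN9 KO, and of its 3 tested genes Aqp1 rose (0.85, adjusted p = 0.000277), a water channel also made by red and endothelial cells. Of these, 2 of 3 rose with Sav1 wt and 3 of 3 with Sav1 KO in the second experiment. There the endocytic receptor gene Lrp2 rose by 1.08 and 1.23 (adjusted p = 0.00155 and 0.000411), and its partner Cubn with Sav1 KO by 1.97 (adjusted p = 0.0177). In both of these comparisons, the adrenal cortex and gonad list had 0 of 4 tested genes higher and 2 lower. The liver, skin sebaceous, and trophoblast and placenta lists had 1, 2 and 3 tested genes there, of which 0 were called higher. Hand1 was called lower with Sav1 KO. Among other heart cell types, cardiomyocyte and endothelial markers were called in both directions. No epicardial, fibroblast and cushion mesenchyme or macrophage marker was called lower in any LIN9 comparison. Of 7 tested cardiomyocyte markers, 4 fell and 1, Nppa, rose in each of the 3 LIN9 comparisons, with median log2 fold changes of -1.01, -0.92 and -0.74. Of 5 endothelial markers, 2, 2 and 3 rose and 0, 1 and 1 fell, and the gene that fell was Kdr both with Sav1 wt and with Sav1 KO. Of 5 epicardial markers, 4 rose in each of the 3 LIN9 comparisons, and of 5 fibroblast and cushion mesenchyme markers 4, 4 and 5 rose. Of 5 macrophage markers, 4 rose in the first experiment, 2 with Sav1 wt and 4 with Sav1 KO. The part of any of these cell types in the result was not tested.

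Genes that act before and after the 3-beta-hydroxysteroid dehydrogenase step were called in both directions. Of 16 tested genes of steroid synthesis, 2 rose and 2 fell in the first experiment, where 11.1% of all genes rose and 9.78% fell, and the list's median log2 fold change was -0.18 against 0.02 over all genes. In the second experiment, 2 of 14 rose and 2 fell with Sav1 wt (12.8% and 10.5% of all genes), and likewise with Sav1 KO (11.8% and 11.6%). Those that rose were Por and Cyb5a, electron donors of many cytochrome P450 enzymes. These counts moved with single libraries. Of the 4 genes called in the first experiment, 1 was left without LIN9 wt replicate 1, and 2 without LIN9 wt replicate 2, LIN9 wt replicate 3 or LIN9 KO replicate 2. In the second, 2 were left without LIN9 wt Sav1 wt replicate 1 or LIN9 KO Sav1 wt replicate 1 or 3 (Sav1 wt), and without LIN9 wt Sav1 KO replicate 2 (Sav1 KO). Cyb5a went from 63.0 ± 1.88 to 205 ± 106 CPM in the first experiment, a log2 fold change of 1.70 ± 0.39 (adjusted p = 0.0361), and was called higher in the second too.

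Cyp17a1, the enzyme that leads on from pregnenolone to the sex steroids and cortisol precursors, fell in all 3 LIN9 comparisons. It had 46 counts in LIN9 wt and 4 in LIN9 KO in the first experiment, with a log2 fold change of -3.39 ± 0.53 and an adjusted p of 0.000344. In the second it had 16 and 3 counts with Sav1 wt (ratio 0.188, interval 0.0352 to 0.658, adjusted p = 0.0292) and 11 and 0 counts with Sav1 KO, at least 3.55-fold lower against 3 counts over the group (adjusted p = 0.00603). Star, which carries cholesterol into mitochondria, fell in the second experiment, by 1.17 ± 0.38 (adjusted p = 0.0238) and 1.01 ± 0.33 (0.0249) on the log2 scale. In the first experiment its log2 fold change was -0.62 ± 0.22 with an adjusted p of 0.0581. Stard3, a sterol transporter of late endosomes, was called lower in the first experiment (-0.38 ± 0.11, adjusted p = 0.0196).

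Among regulators of steroidogenic genes, 3 of 10 rose and 1 fell in the first experiment and in the second with Sav1 wt, and 1 rose and 1 fell with Sav1 KO. Of all genes tested, 11.1%, 12.8% and 11.8% rose and 9.78%, 10.5% and 11.6% fell in these comparisons, and the same shares stand beside the receptors. Nr4a3, an orphan nuclear receptor, had log2 fold changes of 1.35 ± 0.30, 1.91 ± 0.57 and 1.70 ± 0.59, all past the threshold. Cebpb and Gata6 were called higher in the first experiment and in the second with Sav1 wt, with log2 fold changes of 1.14 and 1.25 for Cebpb and 0.39 and 0.40 for Gata6. Agtr1a, an angiotensin II receptor, fell by 1.02 ± 0.15, 0.87 ± 0.21 and 0.73 ± 0.20. Of 8 steroid receptors, 1 rose and 1 fell in each comparison. The membrane steroid-binding protein gene Pgrmc1 rose in all 3, by 0.47, 0.54 and 0.27. Nr3c2, the mineralocorticoid receptor, fell by 1.48 ± 0.25 in the first experiment and by 1.71 ± 0.32 with Sav1 wt in the second. With Sav1 KO its log2 fold change was -0.62 ± 0.31 (adjusted p = 0.154), and there Pgrmc2 was the gene that fell, by 0.34 ± 0.11. The regulators called with Sav1 wt went from 4 to 2 without replicate 2 of either Sav1 wt group, and with Sav1 KO from 2 to 1 without replicate 1 or 2 of LIN9 wt Sav1 KO or any double knockout library. The receptors called with Sav1 KO went from 2 to 0 without replicate 1 of LIN9 wt Sav1 KO or of the double knockout. They went to 1 without replicate 2 or 3 of those groups or of LIN9 KO Sav1 wt, or without LIN9 wt Sav1 wt replicate 3.

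The bile acid and oxysterol genes, the setting of Hsd3b7, were mixed, with 1 of 12 higher and 3 lower in the first experiment, beside 11.1% and 9.78% of all genes. In the second, 1 of 11 rose and 2 fell with Sav1 wt (12.8% and 10.5% of all genes), and 2 rose and 2 fell with Sav1 KO (11.8% and 11.6%). Hsd17b4, a peroxisomal enzyme of side chain shortening, fell by 0.48 ± 0.12, 0.52 ± 0.10 and 0.50 ± 0.10, and Cyp39a1, an oxysterol hydroxylase, by 0.77 ± 0.11, 0.48 ± 0.14 and 0.59 ± 0.14. Cyp27a1, a sterol 27-hydroxylase, rose in the second experiment, by 0.89 ± 0.18 and 0.97 ± 0.19, and had a log2 fold change of 0.31 ± 0.17 in the first (adjusted p = 0.227). Ch25h (0.89 ± 0.26, adjusted p = 0.022) and Cyp46a1 (-0.71 ± 0.23, adjusted p = 0.0401) were called in the first experiment, and Cyp7b1 with Sav1 KO (1.04 ± 0.30, adjusted p = 0.0121). Differences between the experiments were not tested, here or in the other lists. Of the 4 genes called in the first experiment, 1 was left without LIN9 wt replicate 2 and 2 without LIN9 wt replicate 3.

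Cholesterol synthesis supplies the substrate. Of its 20 tested genes, 1 rose and 7 fell in the first experiment, 1 rose and 4 fell with Sav1 wt and 1 rose and 7 fell with Sav1 KO in the second. Of all genes tested, 9.78%, 10.5% and 11.6% fell in these comparisons, and 11.1%, 12.8% and 11.8% rose. The list's median log2 fold changes were -0.24, -0.16 and -0.38, against 0.02, 0.01 and 0.03 over all genes. Idi1, an isomerase of the early pathway, fell by 0.52 ± 0.15, 0.70 ± 0.17 and 0.85 ± 0.16. Srebf2, the transcription factor of the pathway, fell in the first experiment by 0.40 ± 0.12 and with Sav1 KO by 0.72 ± 0.12. Sc5d, a late desaturase, rose in those same comparisons by 0.48 ± 0.11 and 0.65 ± 0.16, and Fdft1, squalene synthase, with Sav1 wt in the second by 0.34 ± 0.12. Of the 8 genes called in the first experiment, 3, 1 and 4 were left without LIN9 wt replicate 1, 2 and 3, and 3 without LIN9 KO replicate 1. Of the 5 called with Sav1 wt, 3 were left without LIN9 wt Sav1 wt replicate 1. Of the relatives of the family, Nsdhl, a sterol dehydrogenase of this pathway, had log2 fold changes of 0.17, -0.16 and -0.13 and Sdr42e1 of 0.52, 0.72 and 1.01. Neither was called, with adjusted p-values of 0.234 to 0.631 over both genes.

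Hsd3b6 is known as a gene under clock control in the adrenal gland, and the clock genes were counted for that reason. Of 17 tested, 2 rose and 3 fell in the first experiment, 5 rose and 0 fell with Sav1 wt and 4 rose and 1 fell with Sav1 KO. Of all genes tested, 11.1%, 12.8% and 11.8% rose and 9.78%, 10.5% and 11.6% fell. Per1, a repressor of the clock, rose in all 3, by 0.43 ± 0.12, 0.91 ± 0.16 and 0.67 ± 0.17. Bhlhe40 and Bhlhe41, which act at E-boxes, rose in the second experiment, by 1.97 and 1.34 and by 1.45 and 1.08, and missed the threshold in the first with 1.53 ± 0.44 (adjusted p = 0.076) and 1.00 ± 0.36 (0.111). The D-box factor Dbp rose with Sav1 wt in the second experiment, by 1.49 ± 0.26, and had log2 fold changes of 0.10 ± 0.24 and -0.05 ± 0.28 in the others. Hlf, of the same factor family, fell in the first experiment and with Sav1 KO, by 0.93 ± 0.23 and 1.14 ± 0.25. Nr1d2 (-0.48 ± 0.13) and Nfil3 (-0.41 ± 0.10), which are repressors, were called lower in the first experiment. Of the 5 genes called there, 3 were left without LIN9 wt replicate 1 and 2 without LIN9 wt replicate 3. The time of day at which embryos were taken was not given in the sources used here. For SAV1 and for the interaction, 0 genes of these lists passed the threshold.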

How the data were processed

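RNA from 18 ventricle libraries in 6 groups of 3 was analysed from the deposited whole-number counts of reads per Ensembl gene. As stated for these counts, the authors mapped reads to mm10 with TopHat2 (2.1.0, per the labels) and Bowtie2, brought each library down to the smallest number of mappable reads and counted with summarizeOverlaps on GRCm38.p6. The 4 ChIP-seq samples and the authors' tables of fold changes and p-values were not used, and 0 columns of per-sample values were left unused. In each of the count matrices, identifiers that were repeated (4) were kept once.

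The quasi-likelihood F test of edgeR 4.0.16 (in R 4.3.3, with TMM factors and robust fits) was run on 19752 and 17675 genes with a mean count above 1, with Benjamini-Hochberg adjustment over all of them and a threshold of 0.05. The second experiment was 1 fit of 12 libraries. The SE is the log2 fold change over the root of the F statistic. CPM used TMM library sizes, and log2 CPM a prior count of 2. Binomial intervals are exact at 95% and, like the floor of 3 counts, cover counting error only. The fits were tested on simulated data with the same spread for every gene. Changes were set only in genes with more counts than Hsd3b1 had in the second experiment, so this does not cover genes that low. Overlaps, lengths and shared stretches came from GENCODE M21, promoters from RefSeq.

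The members and lists were chosen with earlier results of these data known. Genes named besides the 5 members are Lin9, Sav1, up to 4 per direction of each list past the threshold in a LIN9 comparison, the 5 most like Hsd3b6, neighbours within 1 Mb and markers. Some genes that this rule names are counted in their lists but not reported here by name. Genes ranked next to Hsd3b6 were added after their values were seen, as were the ratios to globins and erythroid markers, and Zfp697, Hao2, Nsdhl, Sdr42e1, Hba-x and Hbb-y values were given whatever their calls. Alternatives were other size factors, filters, DESeq2 (1.42.0), a replicate block, fits of 2 groups, leaving out each library, and Hsd3b1 and Hsd3b6 summed as 1 gene.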

Additional observations from a re-analysis of the deposited data

How the results depend on the processing

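Hsd3b1 was called for LIN9 in the first experiment under every alternative that tested it by itself. It was called in no other comparison, but these are all of the second experiment. There it had 1 to 8 counts per group, so a missing call cannot show an unchanged level. An alternative chosen after seeing the data summed the counts of Hsd3b1 and Hsd3b6. The pair was then 1 called feature in the first experiment, which rests on the gene chosen for this difference. Leaving out each library in turn, the log2 fold change of Hsd3b6 for LIN9, given as a description, ran from 3.08 to 3.67 in the first experiment, from 3.71 to 4.12 with Sav1 wt and from 2.93 to 3.59 with Sav1 KO, and from 2.74 to 3.40 in the double knockout. For SAV1 it ran from -0.42 to 0.044 in LIN9 wt, turning positive without LIN9 wt Sav1 wt replicate 2 or LIN9 wt Sav1 KO replicate 1, and from -1.15 to -0.48 in LIN9 KO. The interaction ran from -0.96 to -0.30. The log2 fold change of Hsd3b1 for LIN9 in the first experiment ran from 1.95 to 3.06 (without LIN9 wt replicate 2), with adjusted p-values of 0.000581 to 0.00914, and for SAV1 in LIN9 KO it ran from -0.38 to 0.29. Its second-experiment LIN9 log2 fold change ran from 2.14 to 4.48 with Sav1 wt and from 0.93 to 1.49 with Sav1 KO, and that of the double knockout from 2.00 to 4.33, with the highest values for Sav1 wt and the double knockout without LIN9 wt Sav1 wt replicate 3. No call on Hsd3b1 changed with the replicate block, under which Hsd3b6 was at 3.40, 3.93 and 3.28 and Hsd3b1 at 2.41 for LIN9. Same-numbered libraries did not deviate together in every pair (correlations of 0.0267 to 0.0873 in the first experiment and of -0.0514 to 0.393 in the second), so the block was not taken as a pairing. Of 160 list counts under other settings, 9 moved by over 1.5 times. Of these, 5 came from DESeq2, with 1 or 2 genes called. The cause of these moves was not tested. Under edgeR's filterByExpr, Hsd3b1 was left out of the second experiment. In the second experiment 1 count was 0.328 to 0.373 CPM, and the part of depth in the few counts of Hsd3b1 was not tested.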
